A study of Mus musculus with 12 samples.

Results

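The genes described here are 10 mouse genes for secreted proteins that hold back Wnt signalling: Wif1, Sost, Sostdc1, Dkk1, Dkk2, Dkk3, Sfrp1, Sfrp2, Sfrp4 and Frzb. They were chosen by name as inhibitors of the pathway, and each has 1 row among the 23358 rows of the deposited table. The cells were MC3T3 sc4, a subclone of a pre-osteoblast line that was derived from mouse calvaria (the skull roof), at passage 12. Every culture received osteogenic medium with ascorbic acid and β-glycerol phosphate, and RNA was taken on day 1 or day 6. On each day the cells received BMP2, a bone-inducing growth factor, at 0, 10 or 50 ng/ml, each dose without GSK126 or with 5 µM GSK126. GSK126 is a small-molecule inhibitor of EZH2, the enzyme that places the repressive H3K27 methyl mark. The day 1 and day 6 cultures without either agent received vehicle. Each of the 12 conditions was sequenced as 1 library, so no condition has a replicate, and all cells are 1 clonal line.

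Wnt ligands bind Frizzled receptors together with LRP5 or LRP6 and stabilise β-catenin, which favours bone formation in osteoblasts. The secreted inhibitors act at 2 points. WIF1 and the secreted Frizzled-related proteins (SFRP1, SFRP2, SFRP4 and FRZB, also called SFRP3) bind the Wnt ligands themselves. Sclerostin (the product of Sost), SOSTDC1, DKK1 and DKK2 bind the co-receptors LRP5 and LRP6. DKK3 carries the Dickkopf name and domains but is not regarded as a ligand of LRP6. In bone, sclerostin is the product of mature osteocytes.

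The stretch just upstream of an annotated gene start is shown for 4 members. These had a RefSeq promoter sequence and passed the filter on low counts, and the values below turn on their transcripts. Sequences are from RefSeq on GRCm38.p6, the assembly whose genome build is mm10. Each is the 250 bases before the gene start in the deposited table, written 5′ to 3′ along the gene. Capitals mark matches to the searched motifs on either strand. The RefSeq gene starts earlier for Sfrp2 (83765750), so its window lies inside the RefSeq gene. For Dkk2 the RefSeq start is 132085266, so the end of its window lies inside the gene.
Wif1, chr10:121033754-121034003, plus strand: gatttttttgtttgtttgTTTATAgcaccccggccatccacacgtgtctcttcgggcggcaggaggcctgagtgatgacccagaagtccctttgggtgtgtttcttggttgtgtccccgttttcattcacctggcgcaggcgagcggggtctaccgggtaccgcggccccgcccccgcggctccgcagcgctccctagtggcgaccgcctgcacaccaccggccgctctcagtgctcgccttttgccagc
Frzb, chr2:80447397-80447646, minus strand: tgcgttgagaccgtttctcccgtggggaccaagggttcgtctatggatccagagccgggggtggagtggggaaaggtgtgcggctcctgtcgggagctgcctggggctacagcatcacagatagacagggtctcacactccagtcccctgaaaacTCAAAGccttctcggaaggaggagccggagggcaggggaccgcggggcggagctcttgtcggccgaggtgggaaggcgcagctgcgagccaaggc
Dkk2, chr3:132085042-132085291, plus strand: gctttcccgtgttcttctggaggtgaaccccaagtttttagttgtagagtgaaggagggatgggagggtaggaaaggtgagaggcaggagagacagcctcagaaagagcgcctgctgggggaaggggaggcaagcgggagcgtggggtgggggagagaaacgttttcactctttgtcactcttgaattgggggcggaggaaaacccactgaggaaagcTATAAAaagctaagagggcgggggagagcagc
Sfrp2, chr3:83766071-83766320, plus strand: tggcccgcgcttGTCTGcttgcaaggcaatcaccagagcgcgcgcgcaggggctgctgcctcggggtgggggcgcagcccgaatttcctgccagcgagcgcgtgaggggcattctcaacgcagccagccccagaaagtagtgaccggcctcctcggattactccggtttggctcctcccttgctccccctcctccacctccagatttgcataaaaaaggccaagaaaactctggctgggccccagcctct

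The search took 5 short motifs on both strands, with positions counted back from the start. Wif1 had 1 match to the TATA box (TATAAA), on the minus strand from -232 to -227. Dkk2 had the same motif on the plus strand from -32 to -27. It occurred in 12.4% of 32851 promoter windows of the same length. Frzb had 1 match to the TCF/LEF letters (CTTTGA), on the minus strand from -95 to -90, a motif held by 13.8% of the windows. Sfrp2 had 1 match to the 5-letter SMAD element (CAGAC), on the minus strand from -238 to -234, held by 42.2%. No match was found in these 4 windows to the 6-letter SMAD motif (GGCGCC), held by 9.59%, nor to the RUNX motif (TGTGGT), held by 14.0%. CpG dinucleotides numbered 21 for Wif1, 16 for Frzb, 16 for Sfrp2 and 7 for Dkk2, against a median of 6 over all windows.

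Total counts ranged from 74301112 to 113744802 per library, and since every count was even they were read as 2 per read pair. The floor used below is 3 read pairs, equal to 0.0486 to 0.0923 CPM (counts scaled to library size) by library. The 45S ribosomal RNA row Rn45s took 8.96 to 11.7% of counts on day 1. On day 6 its share was 15.4, 17.2 and 21.7% at 0, 10 and 50 ng/ml BMP2 without GSK126, and 14.5, 13.5 and 13.1% with it. The share thus moved with GSK126, and with BMP2 dose it rose without GSK126 and fell with it. Its part in the results was not tested beyond leaving the row out, which changed no member call. Of 6 osteoblast markers, Col1a1, the chain of bone collagen, was at 18484 to 22685 CPM on day 1 and 28604 to 75085 CPM on day 6. The other 5 (Runx2, Sp7, Alpl, Ibsp and Bglap) summed to 162 to 401 CPM on day 1, when Bglap (osteocalcin) was at 0.222 CPM or less, and to 604 to 5972 CPM on day 6. Genes listed for other cell types were also present: Col2a1 (cartilage collagen) at 2315 to 4155 CPM on day 1, the smooth muscle list at a summed 1580 to 2011 CPM on day 1, nearly all Acta2, and the tendon list at 21.9 to 45.4 CPM over both days. The adipocyte, skeletal muscle, endothelial and macrophage lists summed to at most 3.6 CPM in any library. Acan, Adipoq, Plin1, Myod1, Myog, Cdh5, Kdr, Emr1 and Tnmd were at 3 read pairs or fewer in all 12 libraries. Ezh2 mRNA is no check of GSK126, which acts on the protein.

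Transcripts of the 10 inhibitors were dominated by Dkk3 and Sfrp2 on day 1. By RPKM, the authors' value scaled to gene length and sequencing depth, those 2 genes made up 98.3 to 99.8% of the summed level of all 10 on day 1. They made up 97.6% in the day 6 vehicle library. With BMP2 on day 6 the make-up was different: Wif1 alone held 34.4% of the sum at 10 ng/ml and 52.5% at 50 ng/ml, against 0.963% with vehicle. With GSK126 the Wif1 share was 13.6% without BMP2, 37.1% at 10 ng/ml and 40.4% at 50 ng/ml. The sum as deposited was 151 RPKM with day 6 vehicle and between 89.1 and 112 RPKM in the other 5 day 6 libraries. RPKM lacks the scaling between libraries used for CPM, whose factors were 1.01 with day 6 vehicle and 0.813 at 50 ng/ml BMP2. The part of scaling in the difference between sums was not tested. The remaining members stayed at or under 2.08 RPKM in every library. These are bulk cultures, in which fewer cells of a type and less RNA per cell cannot be told apart.

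**Figure D1:**
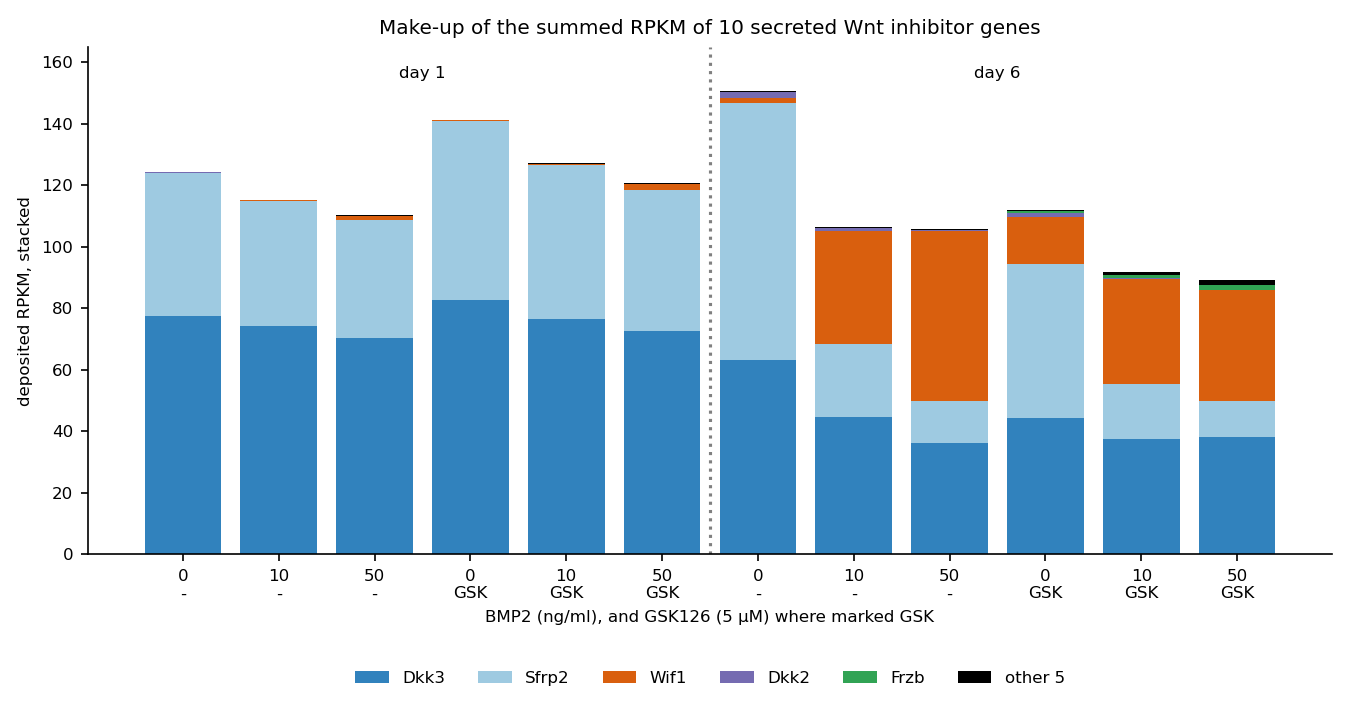
Stacked deposited RPKM of the 10 genes in each of the 12 libraries, ordered by day, GSK126 and BMP2 dose, with 1 library per bar. Dkk3 and Sfrp2 fill the day 1 bars, and Wif1 fills 34.4% to 52.5% of the day 6 bars that received BMP2 alone.

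Of the 10 members, 5 reached 1 CPM in at least 2 libraries and entered the tests (Wif1, Frzb, Dkk2, Sfrp2 and Dkk3). The other 5 (Sost, Sostdc1, Dkk1, Sfrp1 and Sfrp4) did not, and are given by read pairs. Tests used edgeR's quasi-likelihood fit over all 12 libraries, in which conditions that differ in the other factors stand in for replicates. Adjusted p values are Benjamini-Hochberg over 12056 genes, with 0.05 as the threshold. Nothing says the cultures were independent, so a p value reflects only how far these libraries scatter around the model. That scatter may be technical. It also holds any joint effect of GSK126 and BMP2, for which the main fit has no term, so such an effect widens the standard errors.

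**Figure D2:**
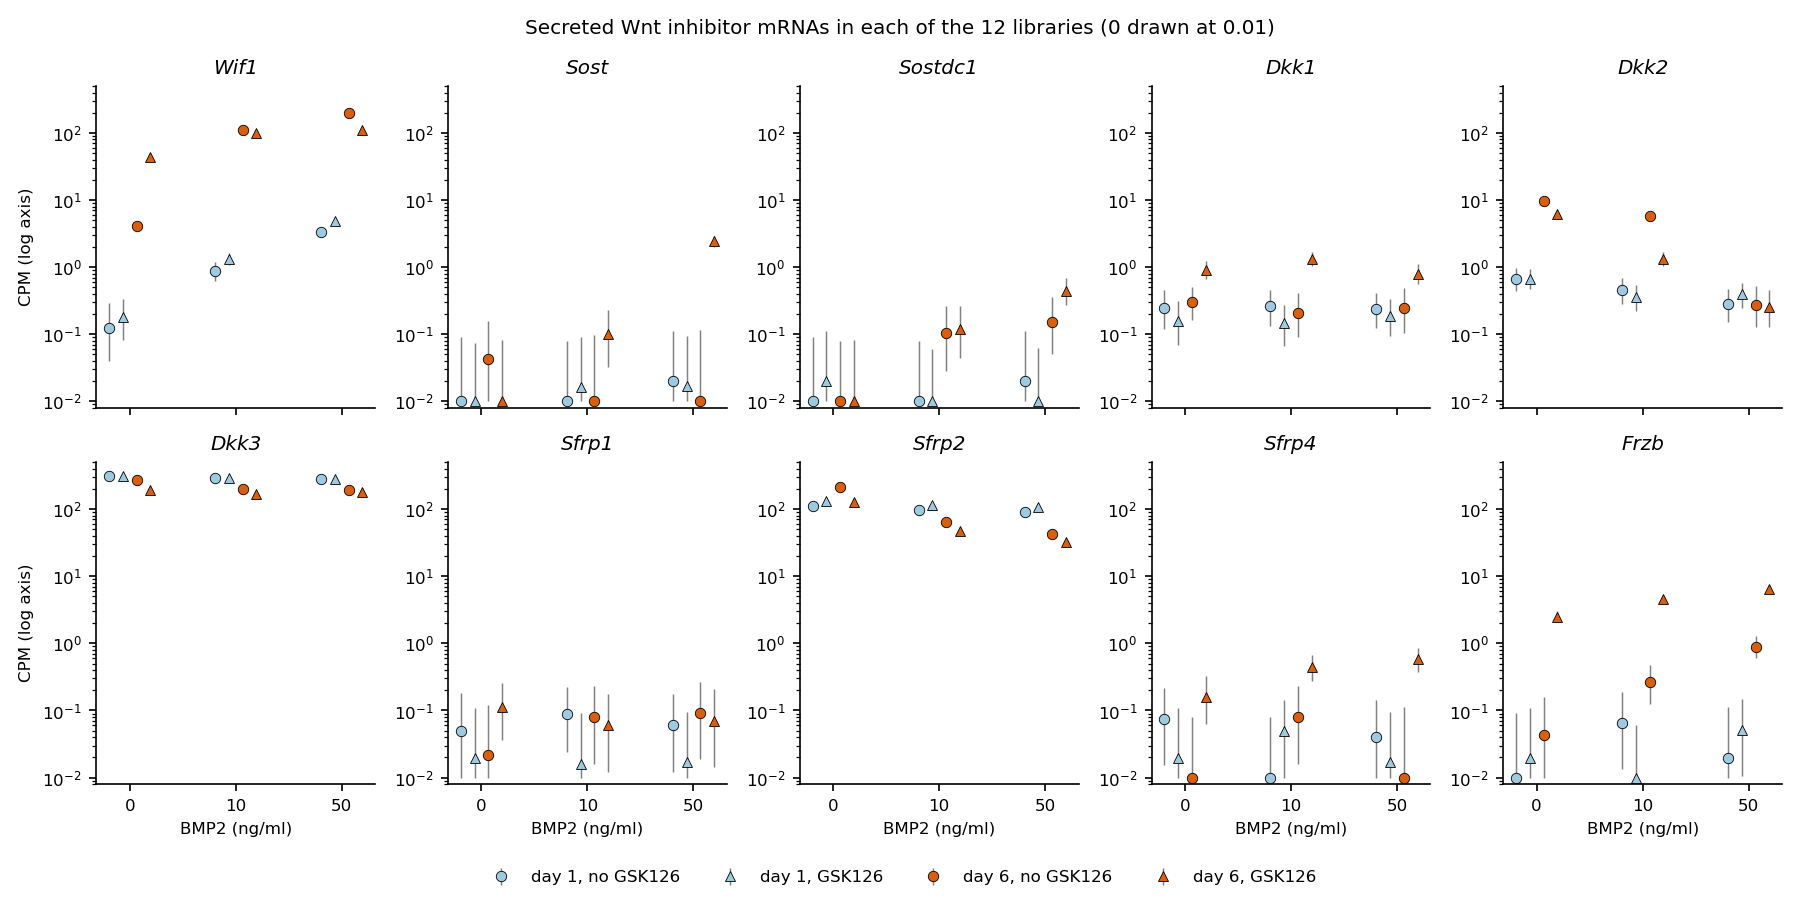
CPM on a log axis against BMP2 dose for each gene, 1 point per library, with exact 95% Poisson intervals for counting error only, and 0 drawn at 0.01. Wif1 lies at 0.125 CPM with day 1 vehicle and 199 CPM at 50 ng/ml BMP2 on day 6, while Dkk3 stays between 166 and 311 CPM.

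Frzb reached 1 CPM only in the 3 day 6 libraries with GSK126, and Dkk2 only in 4 day 6 libraries, so each entered the tests through libraries in which it was high. Counts over the tested members are therefore descriptions, and the fit without the filter, which holds all 10, is given beside them. That fit took every gene with any count in at least 2 libraries, 18008 genes.

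Between day 1 and day 6, the test was passed by 6 of the 10 members in the fit without the filter, Wif1, Frzb, Dkk2 and Dkk1 higher and Sfrp2 and Dkk3 lower on day 6. There 57.0% of 18008 genes passed (29.3% higher and 27.7% lower). With the filter the 5 tested members passed, 3 higher and 2 lower, where 78.0% of genes passed (40.5% higher and 37.5% lower).

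Among the ligand-binding inhibitors, Wif1, which binds Wnt proteins through its WIF domain, had the largest fitted difference between days for which a fold can be given. Its day 1 levels were 0.125, 0.873 and 3.35 CPM at 0, 10 and 50 ng/ml BMP2, and 0.178, 1.33 and 4.84 CPM at the same doses with GSK126. On day 6 they were 4.11, 111 and 199 CPM without GSK126, and 43.9, 100 and 112 CPM with it. The 2 days overlapped only where day 6 vehicle (4.11 CPM) lay below the day 1 library with 50 ng/ml BMP2 and GSK126 (4.84 CPM). Wif1 rose by 6.38 ± 0.65 on the log2 scale (SE, edgeR, adjusted p = 8.5e-05), a fitted 83.2-fold, and all 6 matched pairs of libraries were higher on day 6.

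Wif1 was higher with BMP2 than without it in every matched pair on both days. On day 1 its level at 10 ng/ml was 7.01 times that of vehicle (95% counting interval 2.77 to 22.8), and at 50 ng/ml 26.9 times (11.3 to 83.9). These ratios were nearly repeated with GSK126, at 7.47 and 27.2 times. The day 1 BMP2 effect was 3.80 ± 1.45 (log2, SE) with an edgeR adjusted p of 0.21, which missed the threshold. DESeq2 on the same design called it (adjusted p = 0.00086), as did a fit of the day 1 libraries alone (adjusted p = 1.8e-07). On day 6 the ratios to vehicle were 26.9 (23.2 to 31.2) and 48.4 (41.9 to 56.2) without GSK126, but 2.29 and 2.54 with it. The day 6 effect was 2.71 ± 0.86 with an edgeR adjusted p of 0.055, just outside the threshold, and 9 of 20 alternatives called it. Osteoblast markers moved with BMP2: 6 of 6 were higher on day 6 (28.7% of all genes passed that term) and 3 of 6 on day 1 (3.66% of genes). Without Col1a1 they summed to 604 and 2010 CPM in the day 6 libraries without BMP2 and to 1710 to 5972 CPM in those with it. Their part in the BMP2 results for Wif1, Sfrp2, Dkk2 and Dkk3 was not tested.

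The ratio of Wif1 with GSK126 to Wif1 without it was above 1 in the absence of BMP2 and below 1 in its presence on day 6. There, Wif1 with GSK126 alone was 10.7 times the vehicle level (9.2 to 12.5). At 10 ng/ml BMP2 the ratio was 0.908 (0.871 to 0.946), and at 50 ng/ml it was 0.561 (0.541 to 0.583). The averaged day 6 effect of 0.59 ± 0.75 did not pass the test (edgeR adjusted p = 0.59). Without the day 6 vehicle library that effect was -0.48 (adjusted p = 0.039), and without the day 6 library with GSK126 alone it was -0.49 (adjusted p = 0.041), so the direction rests on the pair without BMP2. The difference between the GSK126 effect with and without BMP2 was -3.96 ± 1.23 on day 6. Its p was 0.016 before and 0.42 after adjustment in edgeR's fit, and no gene passed for this term, with 1125 genes at an unadjusted p under 0.05 (DESeq2 called 190 genes and no member). On day 1 the same term passed for no member and 0.00829% of genes. Each of the 18 alternatives gave Wif1 the same direction, from -4.32 to -3.48, with adjusted p from 0.14 to 1.0.

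Set against single agents, the Wif1 combinations fell short of the sum of the parts. Adding the rises over vehicle from BMP2 alone and GSK126 alone gives an expected 150 CPM at 10 ng/ml, and 100 CPM was observed (0.668 of the expectation). At 50 ng/ml 239 CPM was expected and 112 CPM observed (0.468). A multiplicative expectation was 1180 and 2126 CPM, of which 0.085 and 0.0526 were observed. On day 1 the observed values were 1.06 and 1.01 times the multiplicative expectation. These comparisons rest on single libraries and carry no test.

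**Figure D3:**
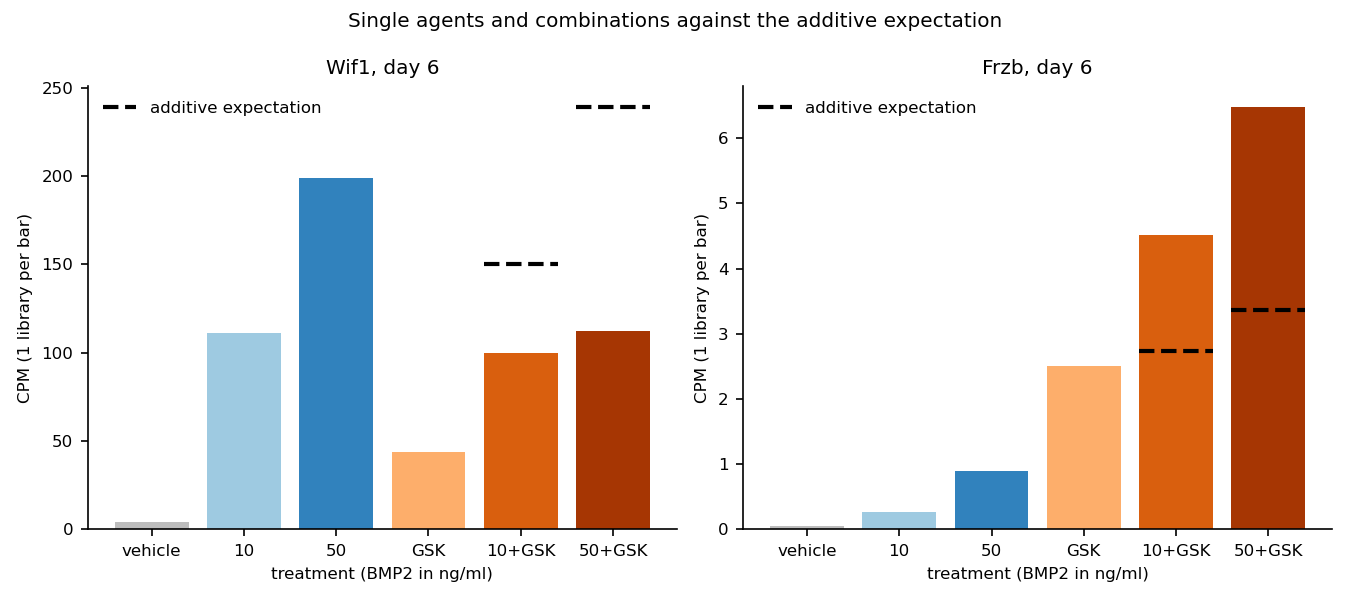
Day 6 CPM of Wif1 and Frzb by treatment, 1 library per bar, with dashed lines at the additive expectation for the combinations. Wif1 combinations (100 and 112 CPM) lie under their lines and Frzb combinations (4.52 and 6.48 CPM) above theirs.

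Frzb, a secreted Frizzled-related protein first found in cartilage, differed from Wif1 in that its high values were those with GSK126. On day 1 it had 0 to 3 read pairs in every library. On day 6 it had 2, 10 and 29 pairs at 0, 10 and 50 ng/ml BMP2 without GSK126, and 113, 227 and 276 pairs with it. The day 6 levels were 0.0431, 0.262 and 0.893 CPM without GSK126 and 2.51, 4.52 and 6.48 CPM with it, so the groups did not overlap. Frzb rose by 3.84 ± 0.56 (log2, SE, edgeR adjusted p = 0.0035) with GSK126 on day 6, and by 3.87 ± 0.54 without the filter (edgeR adjusted p = 0.0017). The ratio was 58.4 without BMP2 (15.8 to 488, on 2 pairs in the vehicle library), 17.2 at 10 ng/ml (9.21 to 36.5) and 7.26 at 50 ng/ml (4.94 to 11).

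With BMP2 on day 6, Frzb was higher in 4 of 4 matched pairs, by 1.8 to 20.7 times, yet the effect of 1.59 ± 0.59 missed the threshold (edgeR adjusted p = 0.085). It passed without the day 6 library with GSK126 alone (adjusted p = 0.044) and without the one with 50 ng/ml BMP2 and GSK126 (adjusted p = 0.028). Both combinations lay above the additive expectation, at 1.65 and 1.93 times it, and below the multiplicative one. Frzb passed the test between days (edgeR adjusted p = 0.00013), but its day 1 values were at the floor, so no fold is given. Of the 5 chondrocyte markers 3 were tested, and 1, Col2a1, rose with GSK126 on day 6, by 2.15 ± 0.17 (edgeR adjusted p = 0.00026). The list summed to 93.0 to 412 CPM without GSK126 and 310 to 1214 CPM with it. The other 4 genes summed to 21.8 to 40.9 CPM without and 23.5 to 26.3 CPM with it. Sox9, the cartilage transcription factor, was at 26.6, 21.1 and 38.9 CPM at 0, 10 and 50 ng/ml, and at 23.8, 22.1 and 21.2 CPM with GSK126. Acan was at 3 pairs or fewer throughout. On day 1, when Frzb was at the floor, the list summed to 2355 to 4220 CPM. Their part in the Frzb result was not tested.

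Sfrp2, which binds Wnt ligands through a Frizzled-like domain, fell with BMP2. On day 1 its levels were 111, 95.4 and 91.2 CPM at 0, 10 and 50 ng/ml, and 131, 114 and 106 CPM with GSK126. On day 6 they were 212, 64.6 and 43.2 CPM without GSK126 and 129, 47.7 and 32.2 CPM with it. All 4 day 6 libraries with BMP2 lay below the other 8 libraries. With BMP2 on day 6 Sfrp2 fell by 1.87 ± 0.07 (log2, SE, edgeR adjusted p = 4.9e-05), 3.64-fold lower, and by a further 0.57 ± 0.08 from 10 to 50 ng/ml (adjusted p = 0.0074). The BMP2 call held in all 20 alternatives. The dose call was lost without the day 6 library with 10 ng/ml and GSK126 (adjusted p = 0.051) and in a fit of day 6 alone (adjusted p = 0.12).

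GSK126 lowered Sfrp2 on day 6 at each dose, to 0.607, 0.738 and 0.746 of the level without it. The fall was 0.53 ± 0.06 on the log2 scale (edgeR adjusted p = 0.0017). On day 1 the same ratio was above 1 in 3 of 3 pairs, with an effect of 0.24 ± 0.06 that missed the threshold (edgeR adjusted p = 0.79). The 2 days differed: the GSK126 effect was lower on day 6 by 0.77 ± 0.09 (edgeR adjusted p = 0.0035). So did the BMP2 effect, by 1.62 ± 0.10 (edgeR adjusted p = 0.0012). Averaged over treatments, Sfrp2 fell by 0.62 ± 0.05 between days (edgeR adjusted p = 1.6e-05), but the matched ratios of day 6 to day 1 ran from 1.91 with vehicle to 0.303 with both agents at 50 ng/ml. With treatment as a block the between-day call was lost (adjusted p = 0.13). Smooth muscle markers moved in the same comparisons: of 3 tested on day 6, Acta2 fell by 1.36 ± 0.10 with GSK126 (edgeR adjusted p = 0.00023) and by 1.02 ± 0.10 with BMP2 (0.00077). Tagln fell by 0.67 ± 0.08 (0.0017) and 0.29 ± 0.08 (0.041), while Des rose by 0.65 ± 0.09 (0.0029) and 0.94 ± 0.10 (0.00096). The 5 genes summed to 646 to 1405 CPM without and 250 to 722 CPM with GSK126 on day 6, and to 722 and 1405 CPM without and 250 to 1176 CPM with BMP2. Their part in the falls of Sfrp2, Dkk2 and Dkk3 was not tested.

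Sfrp1 and Sfrp4 were close to the floor. Sfrp1 had 1 to 5 read pairs in each of the 12 libraries, which is too few for a difference to be detectable. Sfrp4 had 0 to 3 pairs in all 6 day 1 libraries and in the 3 day 6 libraries without GSK126. With GSK126 on day 6 it had 7, 22 and 25 pairs at 0, 10 and 50 ng/ml BMP2, above every library without the inhibitor. At 50 ng/ml no pair was counted without GSK126, and the level with it was 6.36-fold higher than a floor of 3 pairs there. In a fit without the filter, over 18008 genes, the day 6 GSK126 term for Sfrp4 passed (edgeR adjusted p = 0.043).

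Among the inhibitors that act at LRP5 and LRP6, Dkk2 fell with BMP2. Its day 1 levels were 0.672, 0.459 and 0.279 CPM at 0, 10 and 50 ng/ml, and 0.672, 0.356 and 0.392 CPM with GSK126. On day 6 they were 9.78, 5.71 and 0.277 CPM without GSK126 and 6.25, 1.33 and 0.258 CPM with it. At 50 ng/ml both day 6 levels lay just under the day 1 range of 0.279 to 0.672 CPM, while the vehicle level was 14.5 times its day 1 value (9.86 to 22.3). On day 6 Dkk2 fell by 3.15 ± 0.34 with BMP2 (log2, SE, edgeR adjusted p = 0.0011) and by 3.45 ± 0.49 from 10 to 50 ng/ml (edgeR adjusted p = 0.0081). The dose call was lost only in the fit of day 6 alone (adjusted p = 0.092), among 20 alternatives.

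The BMP2 effect on Dkk2 was lower on day 6 than on day 1 by 2.29 ± 0.55 (edgeR adjusted p = 0.047). That call was lost in 11 of 19 alternatives, with adjusted p up to 0.25, among them the omission of any of the 6 day 1 libraries. GSK126 alone gave 0.639 of the vehicle level on day 6 (0.549 to 0.744), and at 10 ng/ml BMP2 it gave 0.233 (0.175 to 0.308). At 50 ng/ml the 2 libraries held 11 and 9 pairs and did not differ beyond counting error (ratio 0.932, 0.351 to 2.54). The day 6 GSK126 effect of -1.13 ± 0.35 just missed the threshold (edgeR adjusted p = 0.053), and 8 of 20 alternatives called it. Between days Dkk2, which passed the filter through day 6 libraries alone, rose by 2.03 ± 0.28 (edgeR adjusted p = 0.00042) and by 2.01 ± 0.26 without the filter (edgeR adjusted p = 0.00015), although the 2 pairs at 50 ng/ml gave ratios of 0.993 and 0.659.

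Dkk1, a high-affinity LRP6 antagonist, was low, and its highest values were those with GSK126 on day 6. It had 8 to 12 read pairs on day 1. On day 6 it had 14, 8 and 8 pairs at 0, 10 and 50 ng/ml without GSK126, and 41, 67 and 34 pairs with it, so the groups did not overlap. The ratios were 3.03 (1.62 to 6.01), 6.36 (3.05 to 15.3) and 3.24 (1.47 to 8.1). Without the filter on low counts, Dkk1 rose by 1.98 ± 0.31 with GSK126 on day 6 (log2, SE, edgeR adjusted p = 0.0032), where 18.3% of 18008 genes passed. The GSK126 effect was larger on day 6 than on day 1 by 2.58 ± 0.46 in the same fit (edgeR adjusted p = 0.013), where 6.51% of genes passed.

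Sost, the gene for sclerostin, stood out in 1 library. It had 104 read pairs (2.44 CPM, 1.99 to 2.96) on day 6 with 50 ng/ml BMP2 and GSK126. In the other 11 libraries it had 0 to 5 pairs. No pair was counted with 50 ng/ml BMP2 alone or with GSK126 alone. Taking the floor of 3 pairs per library for these, the level was 26.4-fold and 36.6-fold higher. The lower 95% counting limits of the ratios were 21.1 and 29.2. A single library has no replicate check, and the unfiltered GSK126 term on day 6 did not pass (edgeR adjusted p = 0.17). Of the 5 osteocyte markers, 2 were high in the same library. Dmp1, an early osteocyte matrix gene, was at 732 CPM there, 114 CPM at 10 ng/ml BMP2 with GSK126 and 87.2 CPM at 50 ng/ml BMP2 alone. Phex, an osteocyte endopeptidase, was at 99.9 CPM there, against 36.7 and 18.9 CPM. Pdpn, an early osteocyte membrane protein, was low, at 32.9 CPM there against 49.8 CPM with day 6 vehicle and 47.4 to 72.7 CPM on day 1. Mepe, the remaining marker with Fgf23, was at 0.979 CPM or less in every library. Its highest value was on day 6 with GSK126 alone, where Sost had no pair. Fgf23 was at 3 pairs or fewer throughout. The 5 osteocyte genes summed to 865 CPM in the library where Sost was high, and to 63.1 CPM with GSK126 alone on day 6. In the libraries of day 1 and of day 6 without GSK126 they summed to 61.3 to 136 CPM. Their part in the Sost value was not tested.

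Sostdc1, which binds LRP6 and BMPs, had 0 or 1 read pair on day 1. On day 6 it had 0, 4 and 5 pairs at 0, 10 and 50 ng/ml without GSK126, and 0, 6 and 19 pairs with it. Both day 6 libraries without BMP2 thus had no pair and all 4 with BMP2 had at least 4. The unfiltered BMP2 term on day 6 did not pass (edgeR adjusted p = 0.069).

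Dkk3, the member of the Dickkopf family not assigned to LRP6, was high everywhere and varied least. Its day 1 levels were 310, 294 and 280 CPM at 0, 10 and 50 ng/ml, and 311, 292 and 283 CPM with GSK126. On day 6 they were 270, 202 and 195 CPM without GSK126 and 192, 166 and 178 CPM with it, all below every day 1 library. It fell by 0.57 ± 0.05 between days (log2, SE, edgeR adjusted p = 3.1e-05). On day 6 Dkk3 fell by 0.30 ± 0.07 with GSK126 (edgeR adjusted p = 0.017) and by 0.30 ± 0.07 with BMP2 (edgeR adjusted p = 0.020).

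Both small day 6 calls for Dkk3 depended on the scaling, the fit or single libraries. The GSK126 call was lost in 4 of 20 alternatives: in a fit of day 6 alone (adjusted p = 0.13), with library size scaling (0.078), and without the day 6 library with 10 ng/ml BMP2, or without that with 10 ng/ml and GSK126 (adjusted p = 0.074 for each). The BMP2 call was lost in 6 of 20: in the fit of day 6 alone (adjusted p = 0.14), and without day 1 vehicle (0.051), day 1 GSK126 alone (0.051), day 6 vehicle (0.11), day 6 10 ng/ml BMP2 (0.065) or day 6 10 ng/ml BMP2 with GSK126 (0.060). Without day 6 vehicle the BMP2 effect was -0.15. From 10 to 50 ng/ml on day 6 it differed by 0.03 ± 0.08 and did not pass (edgeR adjusted p = 0.84).

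In counts, the day 6 GSK126 term without the filter passed for 6 of 10 members, Frzb, Dkk1 and Sfrp4 higher and Dkk2, Sfrp2 and Dkk3 lower, where 18.3% of genes passed (9.63% higher and 8.67% lower). The day 6 BMP2 term passed there for 4 of 10, Wif1 higher (edgeR adjusted p = 0.043) and Dkk2, Sfrp2 and Dkk3 lower, where 18.6% passed (8.40% higher and 10.2% lower). With the filter, the day 6 GSK126 term passed for 3 of the 5 tested members, Frzb higher and Sfrp2 and Dkk3 lower, against 28.3% of all tested genes (14.3% higher and 14.0% lower). The day 6 BMP2 term passed for 3 of 5, Dkk2, Sfrp2 and Dkk3, all lower, against 28.7% of all genes (15.5% lower). From 10 to 50 ng/ml on day 6, 2 of 5 passed (Dkk2 and Sfrp2), both lower, against 11.8% of genes (6.47% lower). The difference between days passed for 1 of 5 members for GSK126, where 10.5% of genes passed and 6.52% were lower. For BMP2 it passed for 2 of 5, where 9.14% of genes passed and 5.33% were lower. With 5 genes tested, chosen by name, these shares only describe the members.

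**Figure D4:**
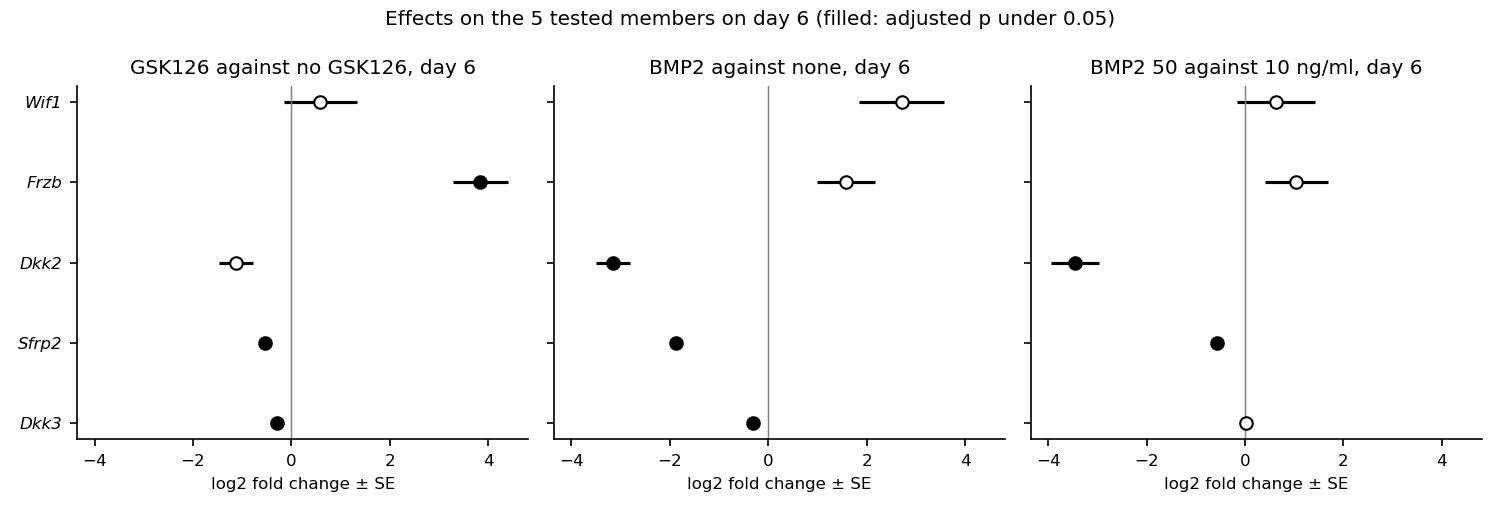
Log2 fold changes with standard errors for the 5 tested members in 3 day 6 comparisons from edgeR's fit over 12 libraries, filled where the adjusted p was under 0.05. Frzb lies to the right with GSK126 (3.84), and Dkk2 to the left with BMP2 (-3.15) and with the higher dose (-3.45).

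On day 1 no tested member passed for GSK126, BMP2 or the higher dose. The background was 0.0% of genes for GSK126, 3.66% for BMP2 and 0.0% for 50 against 10 ng/ml by edgeR. At an unadjusted p under 0.05 there were 755, 2380 and 398 genes, and 1, 2 and 0 members (Sfrp2 for GSK126, Sfrp2 and Wif1 for BMP2). DESeq2 called 0, 2 and 0 members, where 0.0498%, 7.56% and 0.0332% of genes passed. A fit of the day 1 libraries alone called 2, 4 and 1 of 5 members, where 16.2%, 38.9% and 9.35% of genes passed. For BMP2 on day 1 these 4 were Wif1, Sfrp2 (adjusted p = 6.3e-06), Dkk3 (adjusted p = 0.0032) and Dkk2 (adjusted p = 0.025).

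As a description of pattern, the genes closest to each tested member were taken by Pearson's r of log2 CPM over the 12 libraries, among 9382 genes. The libraries are shared, and the 2 days lie far apart, so values near 1 are easily reached. For Wif1 the closest were Zfp862 (0.989), Mrps28 (0.988) and Lpin3 (0.985). Dkk2 was closest to Gas2 (0.976), Sepw1 (0.968) and Itga8 (0.965). For Dkk3 they were Pip4k2b (0.994), Tnrc18 (0.991) and Six2 (0.989). Sfrp2 was closest to Raly (0.991), Foxred2 (0.985) and Eif4e3 (0.973). For Frzb they were Asns (0.986), Pck2 (0.982) and Nars (0.982). Ranking by Spearman's rho gave none of the same top 3 for any member. Between members on day 6, over 6 libraries, r was -0.92 for Frzb with Dkk3 and -0.89 for Sfrp2 with Wif1. It was 0.87 for Sfrp2 with Dkk2 and -0.84 for Dkk3 with Wif1. The remaining pairs lay from -0.69 to 0.8.

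The other genes of the pathway were followed in 6 lists. Their counts stand against shares over all tested genes of 78.0% between days (40.5% higher, 37.5% lower), 28.3% for GSK126 on day 6 (14.3% higher, 14.0% lower) and 28.7% for BMP2 on day 6 (13.3% higher, 15.5% lower). Of 17 other secreted or cell-surface inhibitors 9 were tested, and 6 were higher and 2 lower on day 6 than on day 1. Rnf43, a ligase that removes Frizzled receptors, rose by 5.73 ± 0.23 (log2, SE, edgeR adjusted p = 9.3e-07), and Notum, which removes the lipid of Wnt ligands, by 3.74 ± 0.26 (1.3e-05). GSK126 on day 6 lowered 1 of the 9, Kremen1, a receptor for DKK proteins, by 0.42 ± 0.09 (0.017). BMP2 on day 6 raised 1 listed gene, Bambi, by 1.73 ± 0.30 (0.0065). Its product is a decoy receptor for BMP and TGF-β ligands and not an established Wnt inhibitor, although it was listed here. BMP2 lowered 2, Igfbp4 by 2.00 ± 0.21 (0.00087) and Gm12824, the row of Trabd2b, which encodes a Wnt-cleaving protease, by 1.80 ± 0.18 (0.00076).

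Of the genes for Wnt ligands and their secretion, 12 were tested and 10 were higher and 1 lower on day 6. With GSK126 on day 6, 4 of 12 passed, all higher, as did 4 of 12 with BMP2, near the 28.3% and 28.7% of all genes that passed in either direction. Wnt4 rose by 1.25 ± 0.24 with GSK126 (edgeR adjusted p = 0.010) and by 1.48 ± 0.27 with BMP2 (0.0082). Wnt5a, a ligand of the β-catenin-independent branch, rose by 1.24 ± 0.13 (0.00087) and 0.75 ± 0.14 (0.0082). Wnt7b was at 3.68, 13.2 and 0.246 CPM at 0, 10 and 50 ng/ml on day 6, and 6.07, 1.73 and 0.164 CPM with GSK126.

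Among 15 receptors and co-receptors tested, 8 were higher and 4 lower on day 6, and GSK126 on day 6 gave 5 higher and 4 lower. BMP2 on day 6 gave 3 higher and 3 lower. Between days, 12 of 15 is about the 78.0% of genes in general. Lrp4, the co-receptor through which sclerostin acts on LRP5 and LRP6, rose by 1.11 ± 0.09 between days (2.0e-05). Ror1, a Wnt5a receptor, fell by 1.05 ± 0.14 with GSK126 (0.0024) and by 1.20 ± 0.14 with BMP2 (0.0014). All 4 tested R-spondins and their receptors, which amplify Wnt signals, were lower on day 6. On day 6 GSK126 gave 1 higher and 1 lower, and BMP2 2 higher and 2 lower. Lgr6, an R-spondin receptor, had the widest changes of the 4: it fell by 7.39 ± 0.13 between days (5.3e-08) but rose by 3.91 ± 0.21 with GSK126 (5.9e-05) and by 5.59 ± 0.30 with BMP2 (0.00011) on day 6. Rspo2 fell by 2.81 ± 0.05 between days (5.2e-08), by 0.45 ± 0.07 with GSK126 (0.0036) and by 1.04 ± 0.07 with BMP2 on day 6 (0.00017). With BMP2, Rspo3 fell by 1.65 ± 0.36 (0.015) and Lgr4 rose by 0.43 ± 0.10 (0.017). Of 17 intracellular components, 3 were higher and 11 lower on day 6, with 2 called for each agent on day 6.

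Of 15 genes known as β-catenin targets, 8 were higher and 5 lower on day 6. GSK126 on day 6 gave 1 higher and 4 lower, and BMP2 2 higher and 3 lower, so 5 of 15 passed for each agent, near the 28.3% and 28.7% of all genes. Axin2, a feedback inhibitor that is a standard readout of the pathway, was at 1.75 to 2.51 CPM on day 1. On day 6 it was at 28.5, 31.5 and 17.1 CPM at 0, 10 and 50 ng/ml, and at 21.5, 13.5 and 6.78 CPM with GSK126. It fell by 0.98 ± 0.17 with GSK126 (edgeR adjusted p = 0.0072) and by 0.75 ± 0.18 with BMP2 (0.020). Nkd2, another feedback inhibitor, fell by 2.08 ± 0.53 (0.026) and 2.04 ± 0.52 (0.027). Fosl1 rose by 1.06 ± 0.11 (0.00083) and 1.16 ± 0.12 (0.00086), so the list did not move in 1 direction.

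**Figure D5:**
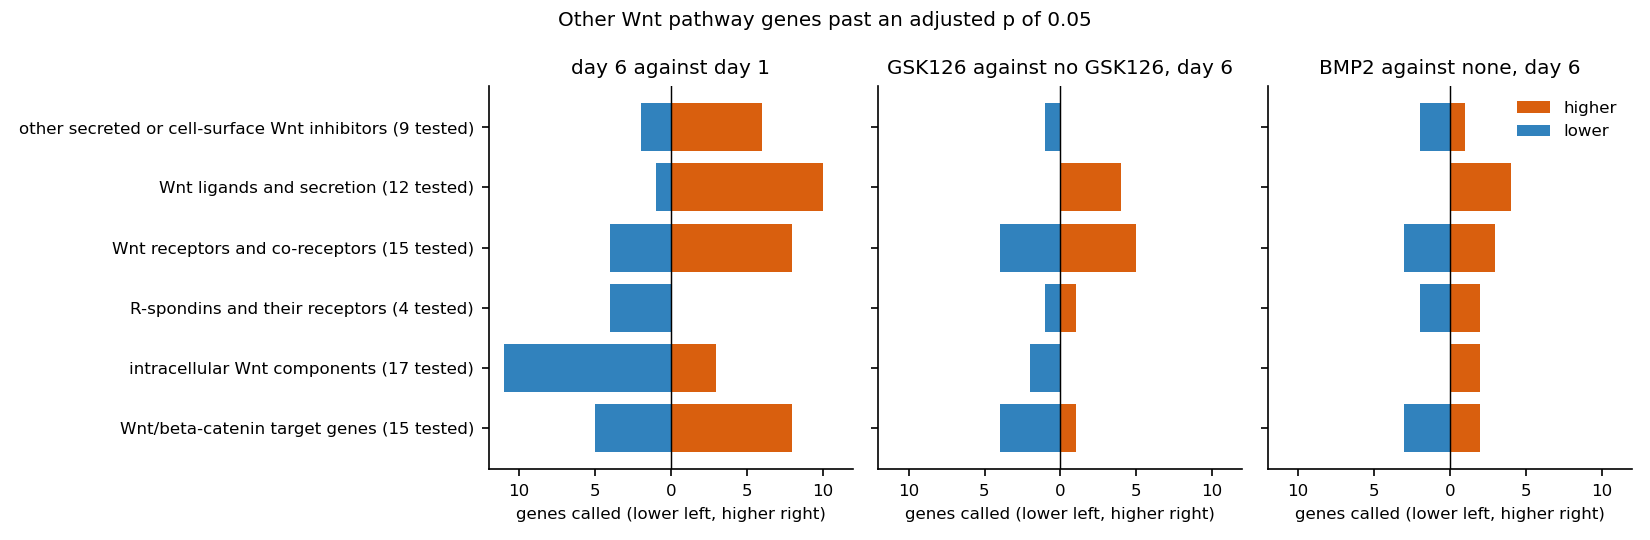
Numbers of other Wnt pathway genes past an edgeR adjusted p of 0.05 in 6 lists and 3 comparisons, with lower genes to the left and higher genes to the right of 0. The ligand list has 4 higher and 0 lower genes with each agent on day 6, and the target list has 1 higher and 4 lower with GSK126.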

How the data were processed

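RNA-seq was done on 12 libraries, grouped by their titles, 1 per condition. The authors deposited 1 table with counts and RPKM per gene. Per the submitters' processing notes, bcl2fastq, TopHat2 2.0.6, HTSeq and mm10 were used; the counting options, strand among them, were not given in the sources used here, so antisense or overlapping reads cannot be told apart. Rows overlapping a member held at most 8 read pairs. All deposited counts were even, and 69 rows share a name with another. RPKM values, as deposited by the authors, were used only to compare genes and to sum them within each library.

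Counts as deposited, read as 2 per read pair, were tested with edgeR 4.0.16 (R 4.3.3), TMM scaling, and genes at 1 CPM or more in 2 libraries. For this filter CPM was taken on plain library size. The model had terms for day and, within day, GSK126 and each BMP2 dose (8 coefficients, 4 residual degrees of freedom). A second fit gave the interaction of GSK126 with any BMP2. It had no term for dose, so a difference between the doses counted as scatter there. The edgeR test reports no standard error, so each SE given with it is the absolute log2 fold change divided by the square root of the test's F statistic. Log2 CPM for correlations used a prior count of 2. Alternatives used DESeq2 1.42.0, limma 3.58.1 (voom), other filters and scalings, halved counts, fits per day, and omission of each library. Halved counts were run with the filter only, so no call without the filter was checked that way. The procedure was also run on simulated counts in which all libraries shared 1 baseline and few genes changed. That setting is unlike these data, so it cannot vouch for the calls here. Intervals are exact 95% ones and cover counting error only. Tables and plots used Python 3.11.15, pandas 2.3.3, SciPy 1.17.1 and matplotlib 3.10.9.

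Members and gene lists were chosen with earlier results of these data known. Genes named were all members, up to 4 called genes per list and comparison of the largest change, and the 3 genes closest to each tested member; Wnt7b, and the marker levels, were named after their values were seen. Promoter sequences were matched by symbol for 6 of the 10 members.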

Additional observations from a re-analysis of the deposited data

Results flagged for a closer look

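In 3 cases the effect of an agent on a member differed between the days by the test of the difference itself (edgeR, adjusted over 12056 genes). Of all genes, 10.5% passed this test for GSK126 and 9.14% for BMP2. For Sfrp2 the GSK126 effect was lower on day 6 than on day 1 by a log2 difference of -0.77 ± 0.09 (SE, adjusted p = 0.0035). The BMP2 effect on Sfrp2 differed by -1.62 ± 0.10 (adjusted p = 0.0012). Both held in all 19 alternatives. The BMP2 effect on Dkk2 differed by -2.29 ± 0.55 (adjusted p = 0.047), and 11 of 19 alternatives did not call it.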

How the results depend on the processing

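No pairing by replicate number was possible, since each condition has 1 library; matching the days with treatment as a block called 4 of 5 members and 8214 genes (5 and 9407 without it). Number of tested members called, by setting, with the share of all genes: a fit per day gave 2 for GSK126 on day 1 (16.2% of genes), 4 for BMP2 on day 1 (38.9%), 1 for 50 against 10 ng/ml on day 1 (9.35%) and 0 for that dose step on day 6 (0.0498%). DESeq2 gave 2 for BMP2 on day 1 (7.56%) and 2 for the GSK126 difference between days (14.3%). Without the filter there were 6 for GSK126 on day 6 (18.3%) and 2 for the GSK126 difference (6.51%), out of 10 members. For the BMP2 difference, a filter at 5 CPM (10.1%), limma-voom (9.36%) and halved counts (9.22%) each gave 1. Leaving out 1 library gave 2 to 5 for GSK126 on day 6 (15.3 to 35.3% of genes) and 1 to 2 for the GSK126 difference (2.82 to 21.8%). The member counts for BMP2 and for the dose step also moved. An omission can leave 1 library in a group there, so those member counts are not given.

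With library size scaling, the day 6 combination over the additive expectation was 0.501 for Wif1 at 50 ng/ml, and 1.46 and 2.13 for Dkk3 at 10 and 50 ng/ml. Over the multiplicative one it was 0.0877 and 0.0597 for Wif1, 1.19 and 1.46 for Dkk3, and, at 50 ng/ml, 1.40 for Sfrp2 and 0.141 for Frzb. No ratio was formed to an expectation at or under 0.

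Directions turned as follows, and the cause was not tested. The Wif1 GSK126 difference between days was -0.23 by limma-voom and -0.01 with halved counts. The Dkk3 dose step on day 6 was -0.11 by library size. The day 1 interaction was 0.0034 (filter at 5 CPM) and 0.01 (fit per day) for Dkk3, and -0.0025 (library size) for Sfrp2.

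Leaving out 1 library gave these log2 ranges where a direction turned. For Wif1 they were -0.49 to 1.47 for GSK126 on day 6, -0.85 to 1.47 for the day 6 dose step, -1.04 to 0.92 for the GSK126 difference, -2.52 to 1.38 for the BMP2 difference and -1.19 to 1.31 for the day 1 interaction. For Dkk2 they were -0.17 to 0.22 for GSK126 on day 1, -0.62 to 0.04 for the day 1 dose step, -0.29 to 0.42 for the day 1 interaction and -2.89 to 2.19 for that on day 6. For Dkk3 they were -0.0013 to 0.01 for GSK126 on day 1, -0.10 to 0.16 for the day 6 dose step and -0.04 to 0.04 for the day 1 interaction. For Sfrp2 they were -0.04 to 0.06 and -0.02 to 0.61 for the interaction on days 1 and 6.

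Counts over all genes moved by more than 1.5 times as follows. A fit per day called 1957 genes for GSK126 on day 1 (0 in the fit over both days) and 953 on day 6 (3415). For BMP2 it called 4684 on day 1 (441) and 1051 on day 6 (3463), for the dose step 1127 on day 1 (0) and 6 on day 6 (1423), and 2 for the day 1 interaction (1). DESeq2 called 6 for GSK126 on day 1, 912 for BMP2 on day 1, 4 for the day 1 dose step and 190 for the day 6 interaction (0). Leaving out 1 library gave as few as 1845 for GSK126 on day 6, 1 to 1486 for BMP2 on day 1, 258 to 3033 for the day 6 dose step, 340 to 2623 for the GSK126 difference (1261), 105 to 2499 for the BMP2 difference (1102) and up to 160 for the day 6 interaction.

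Library size scaling took the median log2 fold change of all genes to as low as -0.18 (day 6 against day 1), where it was 0.03 with TMM. It gave 3071 higher and 6235 lower between days (4883 and 4524 with TMM), 807 and 3412 for BMP2 on day 6 (1600 and 1863), 345 and 2115 for the day 6 dose step (643 and 780), 1843 and 1181 for GSK126 on day 6 (1726 and 1689) and 268 and 776 for the BMP2 difference (460 and 642). Differences among members under the floor of 3 pairs were not detectable at this depth.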
